A study of Mus musculus with 6 samples.

Results

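A mouse mammary tumour line that had received 150 µM hydrogen peroxide (H2O2) every day for 7 months, the DI150 line, was compared with its untreated counterpart, the PBS line. The comparison covered 11428 of the 24454 genes in the table, namely every gene with a mean of at least 1 CPM (counts scaled to 1000000 reads per library) over the 6 libraries of the series, and 4 of those 6 libraries, 2 from each line. No gene was admitted to this comparison by its change, although many of the genes named below were picked by theirs. Both lines were MTflEcad epithelial cells, grown from a tumour in the mammary gland of the MMTV-Neu strain, in which the promoter of the mouse mammary tumour virus drives the Neu (Erbb2) oncogene in mammary epithelium. They therefore share that transgene, the tumour of origin and the culture medium. A further line, I80, had received 80 µM H2O2 every day for the same 7 months and is given beside DI150 where the values are informative. Each dose is represented by 1 line, so that the dose and any other property of the line cannot be told apart. The libraries of a line are described as biological duplicates, and whether they came from separate long-term cultures is not given in the sources used here, so that the p-values measure only the spread between these libraries, which may be technical. These are bulk libraries, in which fewer cells of a type and less RNA per cell cannot be told apart.

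H2O2 is a by-product of respiration and of several oxidases and acts as a signal at low levels. Cells remove it with catalase, glutathione peroxidases and peroxiredoxins, which draw their reducing power from glutathione, thioredoxin and NADPH. Oxidation of the sensor protein KEAP1 releases the transcription factor NRF2, which binds antioxidant response elements and raises the genes of glutathione synthesis, conjugation and export. Mammary epithelium consists of luminal cells, which carry keratins 7, 8 and 18, and basal cells, which carry keratins 5, 14 and 15.

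The PBS libraries held 26608715 and 24729527 reads assigned to genes, and the DI150 libraries, numbered 1 and 3 in the table, held 21017849 and 26205388. A single read was worth 0.0376 to 0.0476 CPM in the 6 libraries, and 13905 to 15015 genes had at least 1 read. Log2 levels correlated with r = 0.991 between the PBS libraries and 0.997 between the DI150 libraries, against 0.804 to 0.810 across the lines. Duplicates differed by more than counting noise, by a chi-square divided by its degrees of freedom of 25.6 (PBS) and 10.1 (DI150). The epithelial markers Epcam, Cdh1, Krt8 and Krt18 were present in all 4 libraries. Cdh1 was at 579 and 669 CPM in PBS and 388 and 374 CPM in DI150, and the others were higher than Cdh1 in every DI150 library. Not all epithelial markers were kept: of the 12 listed, 9 were called lower in DI150, 5 of them at least 2-fold, and 2 higher. Krt19, among those lower, had 0 reads in both DI150 libraries. The summed level of the 12 fibroblast markers was 24.1 and 25.9 CPM in PBS and 23.1 and 22.7 CPM in DI150. That of the 16 leukocyte markers was 86.7 and 103 CPM in PBS and 74.7 and 63.0 CPM in DI150, of which Cd14 held 76.8 and 85.0 CPM and 72.5 and 60.8 CPM, while Ptprc was at 0.263 and 0.243 CPM and 0.143 and 0 CPM and Cd3e and Adgre1 had 0 reads. The 10 endothelial markers summed to 2.29 to 3.24 CPM in these libraries. The 15 muscle and neural markers summed to 100.2 and 107 CPM in PBS and 215 and 218 CPM in DI150, of which Mbp, the myelin basic protein, held 98.8 and 104 CPM and 203 and 205 CPM. The 9 adipocyte markers summed to 0.0376 and 0.162 CPM in PBS and 11.8 and 13.7 CPM in DI150. Most of the DI150 sum was Lpl, given further on, while Adipoq had 0 reads.

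In all, 7853 of the 11428 genes, or 68.7%, passed limma at an adjusted p under 0.05, of which 3733 (32.7%) were higher and 4120 (36.1%) lower in DI150. The values of the 4 libraries did not overlap between the lines for 9547 genes (83.5%). The median of the absolute log2 fold change was 0.48 and the median standard error 0.10. A change of at least 4-fold was called for 417 genes upward (3.65%) and 635 downward (5.56%), and a change of at least 16-fold for 82 upward (0.718%) and 243 downward (2.13%). Tested genes with a higher mean in DI150, called or not, together gained 21.02% of all assigned reads, and those called higher gained 19.93%. The 10 most abundant genes of each line held 4.88% of the reads in PBS and 4.83% in DI150, so the concentration of reads in a few genes was alike in both.

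**Figure D1:**
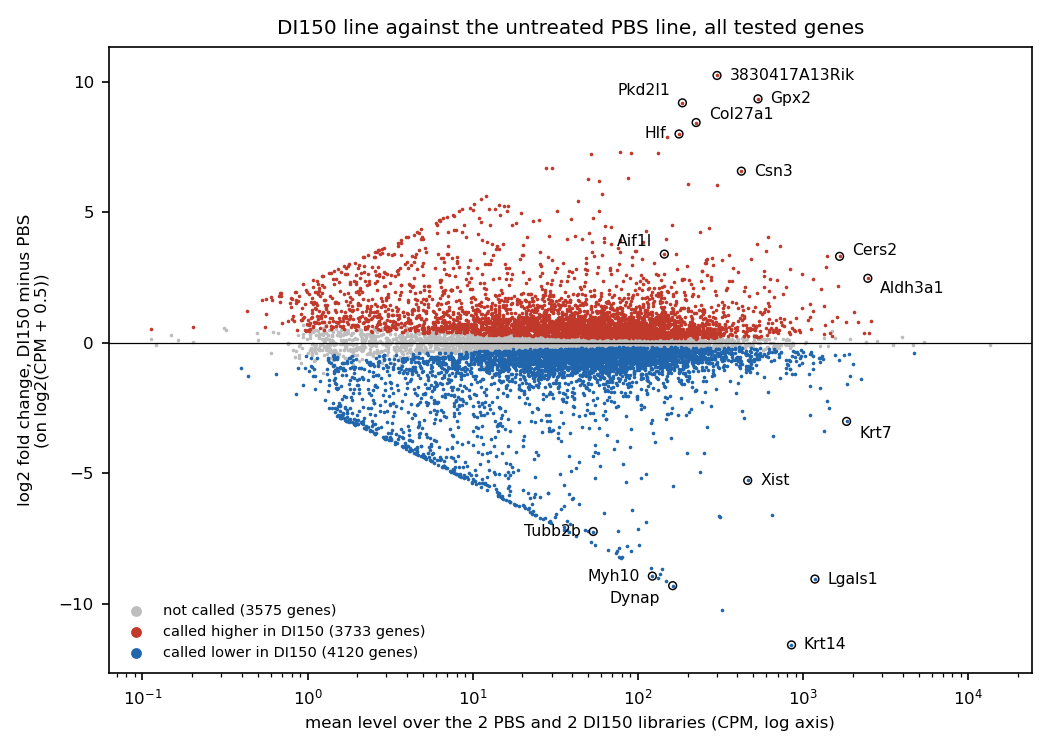
Log2 fold change of DI150 against PBS (vertical axis, on log2(CPM + 0.5)) against the mean level over the 4 libraries (horizontal log axis), 1 point per tested gene, coloured by the limma call. Both arms reach beyond 8 log2 units, 3830417A13Rik lies at the top, above Gpx2 and Pkd2l1, and Krt14, at -11.56 ± 0.20, lies at the bottom.

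The genes with the largest rises were near silent in PBS cells. The largest was that of 3830417A13Rik, a protein-coding gene on the X chromosome (chrX:64173548-64178779 in GRCm38), which had 0 reads in PBS and stood at 606 and 598 CPM in DI150 (at least 5145-fold higher, adjusted p = 1.32e-08, limma) and at 72.7 and 97.0 CPM in I80. It falls outside the rule for named genes, which leaves out predicted-gene names, and was named after its values were seen. Gpx2, a glutathione peroxidase of epithelia (chr12:76792335-76795554), was at 1.39 and 0.930 CPM in PBS and 1091 and 1039.6 CPM in DI150, a 918-fold rise (log2 fold change 9.34 ± 0.13, standard error, adjusted p = 1.32e-08, limma). Pkd2l1, a cation channel of sour-taste cells, was at 0.0752 and 0.202 CPM in PBS and 407 and 336 CPM in DI150 (2679-fold, adjusted p = 2.35e-08), while I80 held 5.50 and 5.19 CPM. Each DI150 library thus lay far above each PBS library for these 2 genes. Col27a1, a fibrillar collagen chain, went from 0.752 and 0.849 CPM to 428 and 471 CPM (561-fold). Hlf, a transcription factor of the PAR bZIP family that includes clock output factors, went from 1.24 and 0.607 CPM to 350.5 and 357 CPM (383-fold). Cbr3, a carbonyl reductase, went from 0.301 and 0.687 CPM to 168 and 142 CPM (314-fold). Limch1, an actin-binding protein that activates non-muscle myosin, Olfml3, a secreted olfactomedin-like protein, Nxph4, a neurexophilin, and Masp1, a protease of the complement lectin pathway, rose 208-fold, 274-fold, 519-fold and 774-fold. Csn3, which encodes the milk protein kappa-casein, was at 4.85 and 13.5 CPM in PBS and 687 and 986 CPM in DI150 (91.1-fold, adjusted p = 4.19e-06). The 2 PBS libraries of Csn3 were uneven, and both lay far below either DI150 library.

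The largest falls took abundant transcripts to low or undetected levels. Krt14, the basal keratin (chr11:100203162-100207510), was at 1728 and 1674 CPM in PBS and 0.0476 and 0.0763 CPM in DI150, where it rested on 3 reads in all (a pooled read ratio of 26784, 95% interval 9165 to 129882; adjusted p = 2.35e-08). Lgals1, which encodes galectin-1, was at 2583 and 2124 CPM in PBS and 3.57 and 4.35 CPM in DI150 (594-fold lower, adjusted p = 2.48e-08). Both genes were abundant in the PBS libraries. Dynap, which encodes a dynactin-associated protein, was at 242 and 407 CPM in PBS and had 0 reads in DI150 (at least 2523-fold lower). Myh10, the heavy chain of non-muscle myosin IIB, was at 267 and 222 CPM in PBS and had 0 reads in DI150 (at least 1901-fold lower). Tns4, a tensin of focal adhesions, was at 544 and 754 CPM in PBS and 0 and 0.0763 CPM in DI150. Serpinh1, the collagen chaperone HSP47, was at 269.9 and 273 CPM in PBS and 0.0952 and 0.0763 CPM in DI150 (3165-fold lower). Celsr1, a planar polarity cadherin, was at 229.6 and 253 CPM in PBS and 0.143 and 0.0763 CPM in DI150 (2204-fold lower). Tpm2, the beta chain of tropomyosin, was at 148 and 167 CPM and 0 and 0.0382 CPM. Acap1, an Arf GTPase-activating protein, was 1429-fold lower. The rule for the largest changes admitted only genes that did not overlap between the lines. That held for 83.5% of all tested genes.

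**Figure D2:**
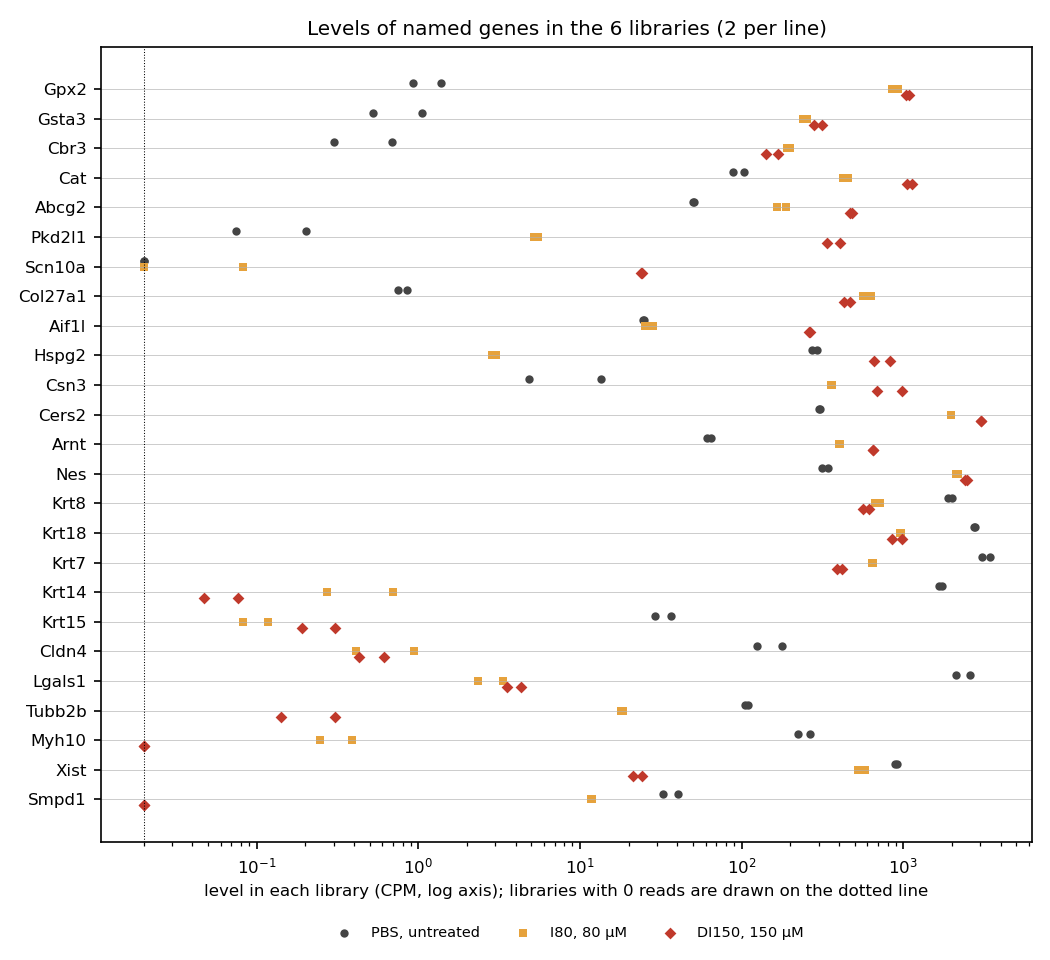
Level of 25 genes described in the text in each of the 6 libraries (CPM, log axis), 2 points per line for PBS (circles), I80 (squares) and DI150 (diamonds), with libraries at 0 reads on the dotted line. Pkd2l1, Scn10a, Aif1l and Hspg2 separate DI150 from I80 as well as from PBS, whereas Gpx2, Krt14 and Lgals1 lie close together in both treated lines.

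Abundant transcripts turned over as well, measured by mean CPM gained or lost. Aldh3a1, an aldehyde dehydrogenase that oxidises aldehydes from lipid peroxidation, gained the most, from 498 and 1082 CPM to 4876 and 3399 CPM (5.24-fold, adjusted p = 0.000347). Its libraries were uneven within both lines, without overlap between them. Cers2, which makes very-long-chain ceramides, went from 305 and 303 CPM to 3012 and 3030.2 CPM (9.93-fold, adjusted p = 3.54e-08). Nes, the intermediate filament protein nestin, went from 342 and 316 CPM to 2398 and 2467 CPM (7.40-fold). Gsto1, an omega-class glutathione transferase, went from 304 and 410.0 CPM to 2029 and 1816 CPM (5.38-fold), and Mfge8, a secreted protein of milk fat globules, rose 6.20-fold. Pfkp, the platelet form of phosphofructokinase, rose 4.15-fold, Actn4, an actin crosslinker, 2.26-fold, and Atp5b, the catalytic beta subunit of ATP synthase, 1.77-fold. Among the losses, Krt7 went from 3429 and 3093 CPM to 420.2 and 389.7 CPM (8.05-fold lower, adjusted p = 9.47e-08). Spp1, the secreted phosphoprotein osteopontin, was at 1864 and 3008 CPM in PBS and 273 and 186 CPM in DI150 (10.6-fold lower). The membrane-binding annexins Anxa1 and Anxa2 were 4.72-fold and 6.81-fold lower. Emp1, an epithelial membrane protein, was 5.56-fold lower and Ahnak, a large scaffold protein beneath the plasma membrane, 2.57-fold.

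Some genes were detected in 1 line and not in the other. Both DI150 libraries had 0 reads and the PBS mean was at least 1 CPM for 195 genes. Of these, 86 had a mean of at least 5 CPM in PBS and 113 were also at 0 in I80. Klhdc8a, a kelch-domain protein, had 81.5 and 86.8 CPM in PBS and 0 reads in DI150 (at least 654-fold lower). Akr1b8, an aldo-keto reductase, was at 75.5 and 76.4 CPM (at least 591-fold lower), Notum, the lipase that inactivates Wnt proteins, at 56.3 and 92.2 CPM (at least 577-fold lower), and Tead2, a DNA-binding partner of YAP, at 75.1 and 66.8 CPM (at least 552-fold lower). Arpin, an inhibitor of the Arp2/3 complex, and Fut2, a fucosyltransferase of mucosal glycans, were likewise at 0 in DI150, from 63.3 and 56.4 CPM and 47.6 and 68.9 CPM. The reverse, 0 reads in PBS and a DI150 mean of at least 1 CPM, held for 46 genes, of which 42 had reads in I80. After 3830417A13Rik, the gained gene with the highest level in DI150 was Scn10a, a voltage-gated sodium channel of sensory neurons, at 24.3 and 24.0 CPM (at least 206-fold higher). Adcy8, an adenylyl cyclase, went from 0 to 23.3 and 21.8 CPM (at least 192-fold), Zfp366, a zinc finger protein, to 18.7 and 15.6 CPM (at least 147-fold), and Lpl, the lipoprotein lipase, to 11.8 and 13.6 CPM (at least 108-fold). Lpl also counts among the adipocyte markers, whose other defining member Adipoq had 0 reads. Lpl was among the 4 gained genes that were also at 0 in I80. A count of 0 allows up to 0.113 to 0.143 CPM in these libraries, counting error only.

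Peroxide-removing enzymes were mostly higher. Of 19 tested, 14 rose and 3 fell, with a median log2 fold change of 0.74 against -0.03 over all tested genes. Among classical NRF2 targets 22 of 28 rose (median 1.51), and among glutathione S-transferases 12 of 18 (median 2.21), where the background is 32.7% higher and 36.1% lower. Cat, catalase, was at 89.1 and 104 CPM in PBS and 1136 and 1059.5 CPM in DI150 (11.3-fold, adjusted p = 7.54e-08), with 456 and 424 CPM in I80. Gclm, the modifier subunit of the enzyme that starts glutathione synthesis, was at 62.6 and 51.9 CPM and 319 and 304 CPM (5.44-fold), and its catalytic partner Gclc rose 2.84-fold. Every DI150 library of these genes exceeded both PBS libraries. Gsta3, an alpha-class transferase, was at 0.526 and 1.05 CPM in PBS and 313 and 283 CPM in DI150 (378-fold). Gstp1, the pi-class transferase, was at 56.3 and 54.0 CPM and 525 and 403 CPM (8.42-fold), and Mgst1, a membrane-bound transferase, rose 4.31-fold. Gstm1 and Gstm2, mu-class transferases in a cluster of near-identical genes whose reads the counting could split, were at 112 and 127 CPM and 82.5 and 87.0 CPM in DI150, against 0.714 to 2.75 CPM in PBS. The rise was not general within the family, since Mgst3 was 11.3-fold lower and Gstt3, a theta-class transferase, went from 14.6 and 20.7 CPM to 0.143 and 0.382 CPM (67.3-fold lower).

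The DNA upstream of these genes was described next. The core of the antioxidant response element, searched as TGACNNNGC on both strands (any base at N) in the 250 bases before the RefSeq start in GRCm38.p6, occurred in 2743 of 27025 mouse promoters (10.1%). It occurred in 3 of the 16 tested glutathione S-transferases with a promoter in that table and in 2 of the 16 tested peroxide-removing enzymes. Whether these small counts differ from the share over all promoters was not tested. For classical NRF2 targets only 21 of 28 had a promoter, so no count is given. The following 60-base windows are shown because their genes were called higher, each 5′ to 3′ on the gene's strand, with the match in capitals.
Gclm, chr3:122245398-122245457, plus strand: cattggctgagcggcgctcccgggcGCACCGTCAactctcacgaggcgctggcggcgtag
Gsta3, chr1:21240439-21240498, plus strand: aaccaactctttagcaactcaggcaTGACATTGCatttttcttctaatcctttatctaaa
Mgst1, chr6:138140446-138140505, plus strand: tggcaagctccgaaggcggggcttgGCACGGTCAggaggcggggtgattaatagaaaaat
Gstm5, chr3:107895787-107895846, plus strand: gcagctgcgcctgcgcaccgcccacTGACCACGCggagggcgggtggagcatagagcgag
Prdx1, chr4:116685441-116685500, plus strand: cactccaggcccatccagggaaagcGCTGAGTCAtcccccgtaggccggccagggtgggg

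In Gsta3 and Gstm5 the match reads forward, at TGACATTGC and TGACCACGC, and in the other members it lies on the opposite strand. The match begins 134 bases before the start of Gclm, 121 before that of Gsta3, 56 before that of Mgst1, 42 before that of Gstm5 and 133 before that of Prdx1. The levels of these genes differed widely in PBS all the same, since Prdx1 was at 563 and 558 CPM and Gsta3 at 0.526 and 1.05 CPM. A match does not go with a rise in every listed gene: Sod1, which holds one, was at 111 and 102 CPM in PBS and 105 CPM in both in DI150 and was not called. The upstream stretch of Gpx2 is shown for comparison, because this gene rose more than the others of its list without holding this core there.
Gpx2, chr12:76795555-76795804, minus strand: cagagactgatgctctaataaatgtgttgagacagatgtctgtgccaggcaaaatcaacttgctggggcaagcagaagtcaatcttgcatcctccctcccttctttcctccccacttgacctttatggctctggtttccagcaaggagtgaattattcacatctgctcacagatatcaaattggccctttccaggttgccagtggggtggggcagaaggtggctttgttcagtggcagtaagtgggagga

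The Gpx2 stretch also holds 0 CpG dinucleotides. A match or its absence in these windows is a description of the letters and not of a bound site.

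The supply of reducing power changed enzyme by enzyme. Of 17 pentose phosphate and NADPH enzymes, 7 rose and 7 fell (41.2% each, beside 32.7% higher and 36.1% lower over all tested genes). Taldo1, transaldolase, was at 194 and 214 CPM in PBS and 614 and 557 CPM in DI150 (2.87-fold), Rpia, the isomerase of ribose phosphate, rose 2.75-fold and Me1, the malic enzyme, 2.35-fold. Idh2, the mitochondrial NADPH-producing isocitrate dehydrogenase, was at 245 and 229.6 CPM in PBS and 14.7 and 18.5 CPM in DI150 (14.3-fold lower, adjusted p = 1.65e-07). Aldh1l2, a mitochondrial enzyme of folate metabolism that also yields NADPH, was at 57.4 and 56.1 CPM and 0.619 and 0.534 CPM (98.5-fold lower). Idh1, the cytosolic counterpart of Idh2, fell 2.31-fold, so both isocitrate dehydrogenases that yield NADPH were lower. Txnrd1, thioredoxin reductase, rose 2.88-fold, and Txnip, which binds and inhibits thioredoxin, rose 15.8-fold, from 4.13 and 10.7 CPM to 129 and 105 CPM. Their partner Txn1 was not called, at 389 and 355 CPM in PBS and 385 and 395 CPM in DI150.

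Of 18 iron genes 7 rose (38.9%) and 6 fell (33.3%), near the 32.7% and 36.1% over all tested genes. The ferritin genes and the exporter gene Slc40a1 were among those that rose. Fth1 and Ftl1, the 2 ferritin chains, which have many pseudogenes that could share reads, rose 1.98-fold and 2.79-fold, and Slc40a1, the iron exporter ferroportin, went from 11.1 and 15.3 CPM to 91.8 and 75.1 CPM (6.32-fold). Tfrc, the receptor that imports transferrin iron, was not called (556 and 426 CPM in PBS, 499 and 495 CPM in DI150), although it was without the PBS library 1 (adjusted p = 0.0343, limma). Steap3, a ferric reductase of endosomes, was 367-fold lower, and Cp, the ferroxidase ceruloplasmin, 20.7-fold lower. Abcg2, an efflux pump for drugs and urate, was at 50.3 and 51.2 CPM in PBS and 482 and 466 CPM in DI150 (9.34-fold, adjusted p = 5.73e-08), and it was among the 9 of 16 ABC transporters that rose, while 5 fell. Nox4, an oxidase that makes H2O2, went from 19.2 and 20.9 CPM to 1.38 and 1.07 CPM (16.4-fold lower), and Aqp5, a water channel of secretory epithelia, fell 2.34-fold.

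The abundant keratins of both mammary lineages fell. Of 12 tested basal genes, 9 fell and 3 rose (median -3.06), and luminal genes were divided, with 9 up and 8 down of 21. These luminal shares, 42.9% and 38.1%, stand beside 32.7% higher and 36.1% lower over all tested genes. The luminal falls were the larger, since all 8 reached 2-fold, against 4 of the 9 rises. Beside Krt14, the basal keratin Krt15 was at 29.3 and 36.7 CPM in PBS and 0.190 and 0.305 CPM in DI150 (133-fold lower). Krt8 was at 2018 and 1883 CPM and 612 and 568 CPM (3.30-fold lower, adjusted p = 1.15e-06), and its partner Krt18 at 2795 and 2742 CPM and 988 and 852 CPM (3.01-fold lower). Krt8 and Krt18 stayed detectable in every library, whereas Krt14 and Krt15 did not exceed 0.305 CPM in DI150. Krt19, another keratin among the epithelial markers, went from 5.75 and 11.2 CPM in PBS to 0 reads in DI150 (at least 65.7-fold lower). Egfr, the EGF receptor, fell 11.7-fold, and Lgr6, a receptor for R-spondins, 2.94-fold. Several luminal genes rose: Cited1, a transcriptional cofactor, went from 0.338 and 0.202 CPM to 14.6 and 20.1 CPM (64.3-fold), Krt23, an acidic keratin, from 0.263 and 1.33 CPM to 20.6 CPM in both (25.8-fold), and Tfap2c, a transcription factor of luminal cells, rose 3.03-fold. Elf5 and Gata3, which direct alveolar and luminal fate, rose 1.35-fold and 1.95-fold. Epcam, a surface protein of epithelia, rose 1.74-fold. The summed level of 12 epithelial markers, keratins included, was 11107 and 10962 CPM in PBS and 5281 and 4888 CPM in DI150.

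Cell junction genes fell more often than they rose. In the adherens junction list 9 of 12 fell and 2 rose (Ctnnd1 and Nectin3). Nectin1 and Cdh13, adhesion molecules of the nectin and cadherin families, had 52.0 and 50.5 CPM and 33.8 and 33.4 CPM in PBS and 0 reads in DI150 (at least 398-fold and at least 261-fold lower). Cdh1, E-cadherin, remained at 388 and 374 CPM from 579 and 669 CPM (1.64-fold lower, adjusted p = 0.000153). Desmosomes, which anchor keratin filaments, had 7 of 10 genes lower, with Evpl, envoplakin, going from 116 and 124 CPM to 9.47 and 10.4 CPM (12.1-fold) and Dsg3, a desmoglein, from 117 and 162 CPM to 14.6 and 6.56 CPM (13.2-fold), while Dsp, desmoplakin, rose 1.38-fold. Tight junction genes were divided evenly, 7 up and 7 down of 21 (33.3% each), near the 32.7% and 36.1% over all tested genes. Cldn4, a claudin, was at 124 and 178 CPM in PBS and 0.428 and 0.611 CPM in DI150 (290.3-fold lower), whereas Cgn, cingulin, rose 2.24-fold and Mpp5, a polarity scaffold, 3.30-fold. Of 14 epithelial transcription and splicing factors 9 fell, among them Elf3 (8.82-fold) and Klf4 (28.1-fold), and Ehf rose 3.30-fold.

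Most tubulin genes fell. Of 10 tested, 7 fell and Tubb4b alone rose (1.33-fold). Tubb2b, a beta-tubulin prominent in neurons, was at 105 and 109 CPM in PBS and 0.143 and 0.305 CPM in DI150 (478-fold lower, adjusted p = 2.69e-08), with 17.9 and 18.4 CPM in I80. Tubb6 was at 488 and 453 CPM and 50.6 and 48.7 CPM (9.48-fold lower), and Tuba1a, an alpha-tubulin, fell 11.04-fold. Tubb5, another beta-tubulin, fell 1.76-fold, from 2769.9 and 2329 CPM to 1503 and 1386 CPM. Tubulin genes are close in sequence, so reads shared between copies leave single members uncertain.

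Interstitial matrix genes fell more often than they rose, and basement membrane genes rose or fell member by member. Among interstitial collagens and their processing enzymes 12 of 20 fell, and among matrix proteases and inhibitors 15 of 26. Fn1, fibronectin, was at 1098 and 1321 CPM in PBS and 109.7 and 95.9 CPM in DI150 (11.8-fold lower, adjusted p = 2.25e-07). Vcan, the proteoglycan versican, was at 202 and 199 CPM and 0.809 and 1.07 CPM (213-fold lower), and Has2, a hyaluronan synthase, at 99.8 and 199 CPM and 0.0952 and 0.0382 CPM. Timp2 and Plau, an inhibitor of metalloproteinases and the urokinase protease, fell 18.98-fold and 43.7-fold, while the urokinase receptor Plaur went up from 71.0 and 58.3 CPM to 359.7 and 324 CPM (5.29-fold). Adam15 and Adam9, membrane-bound disintegrin proteases, rose 8.43-fold and 5.31-fold. Of 21 laminin, type IV collagen and hemidesmosome genes 10 rose and 7 fell. Dst, which encodes the plakin dystonin, went from 297 and 290.3 CPM to 1274 and 1286 CPM (4.36-fold), and Lama4, a laminin alpha chain, from 49.6 and 59.6 CPM to 262 and 287 CPM (5.02-fold). Hspg2, the basement membrane proteoglycan perlecan, was at 271 and 293 CPM in PBS and 833 and 657 CPM in DI150 (2.64-fold), against 2.85 and 3.05 CPM in I80. Col4a6, a type IV collagen chain, fell 852-fold, from 142 and 167 CPM to 0.0952 and 0.267 CPM.

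Genes that mark mesenchymal cells mostly fell. Of 15 tested, 11 fell, including Sparc, a matrix glycoprotein, at 172 and 169.9 CPM in PBS and 0.381 and 0.191 CPM in DI150 (598-fold), and S100a4, a calcium-binding protein, at 607 and 618 CPM and 5.47 and 6.03 CPM (106-fold). The 3 that rose were Serpine2, a protease inhibitor (5.43-fold), Cald1, caldesmon (1.38-fold), and the transcription factor Twist1, which went from 8.12 and 8.33 CPM to 19.6 and 18.5 CPM (2.31-fold). Targets of the coactivator YAP with TEAD factors were 14 lower and 5 higher of 26. Ccn2, a matricellular growth factor often read as a YAP target, fell 4.83-fold, from 113 and 122 CPM to 23.7 and 25.1 CPM. Of 27 integrin and focal adhesion genes 16 fell, while Itgb3, the integrin beta 3 chain, went from 3.23 and 9.34 CPM to 131 and 129.7 CPM (20.7-fold, adjusted p = 2.69e-05).

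Receptors of the ERBB family moved apart. Erbb2, whose reads may include those of the Neu transgene, was at 500.1 and 693 CPM in PBS and 2697 and 2587 CPM in DI150 (4.43-fold), and Erbb3, its partner, rose 3.08-fold, against the 11.7-fold fall of Egfr. The ligand Tgfa rose 2.75-fold and Nrg1 fell 2.69-fold. In the list of MAPK feedback and immediate early genes 14 of 29 rose and 10 fell. Dusp6, an ERK phosphatase, was at 59.1 and 82.0 CPM in PBS and 1215 and 1089 CPM in DI150 (16.3-fold), and Etv5, an ETS factor, rose 3.48-fold. The immediate early genes Fosl1, Egr3 and Junb were 11.9-fold, 17.9-fold and 3.12-fold lower, and Jun was not called (43.5 and 42.1 CPM and 43.3 and 44.0 CPM). Among other receptor tyrosine kinases 16 of 27 fell, Epha2 by 3.55-fold and Met by 2.24-fold, while Fgfr1 and Fgfr2 rose 3.53-fold and 4.04-fold. In the Wnt list 15 of 27 fell, with Wnt7b going from 622 and 576 CPM to 253 and 239 CPM (2.43-fold) and Wnt10a from 167 and 153 CPM to 0.0952 and 0 CPM. In the Notch list 11 of 20 rose, including the ligand Dll1 (3.36-fold) and the target Hey1, at 10.4 and 26.1 CPM in PBS and 180.1 and 151 CPM in DI150 (9.05-fold). Of 35 genes of the TGF-beta, activin and BMP pathways 21 fell, Id1 by 4.44-fold and Fstl3, an activin antagonist, by 22.8-fold. Sema3b, a secreted semaphorin, went from 91.4 and 157 CPM to 619 and 614 CPM (4.98-fold), although 14 of 27 guidance genes fell, Unc5b, a netrin receptor, by 109-fold.

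Genes of innate immunity moved in both directions. In the NF-kB list 5 were higher (25%) and 9 lower (45%) of 20, with fewer higher without the DI150 library 3. In the interferon list 12 were higher (31.6%) and 16 lower (42.1%) of 38. Over all tested genes 32.7% were higher and 36.1% lower, so the interferon shares were near the background. Tnfaip3, which encodes the NF-kB inhibitor A20, was at 156 and 158 CPM in PBS and 6.61 and 5.15 CPM in DI150 (26.7-fold lower, adjusted p = 1.24e-07), and Tnfaip2 was 155-fold lower. Cgas, the sensor of cytosolic DNA, fell 40.7-fold, and Trim25, a ubiquitin ligase of RNA sensing, was at 29.5 and 30.9 CPM in PBS and 0 in DI150 (at least 235-fold lower). Irf1, an interferon regulatory factor, fell 2.40-fold, whereas Ifit2, an interferon-induced protein, rose 3.77-fold. In antigen presentation H2-K1, of a class I family close in sequence, fell 1.66-fold, and the proteasome activator subunits Psme1 and Psme2 fell 2.40-fold and 2.86-fold, while B2m was not called (96.8 and 118 CPM and 103 and 101.4 CPM). The chemokine Ccl2 was at 0.0752 and 0.0404 CPM in PBS and 18.7 and 19.8 CPM in DI150 (a pooled read ratio of 329.8, 95% interval 112 to 1602). Gsdmd, the pore-forming gasdermin D, fell 47.7-fold, and Casp1, a caspase that cleaves it, rose 3.71-fold.

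Most proliferation genes were lower, by small factors. Of 53 replication genes 34 fell and 6 rose (median -0.45), and of 56 mitosis genes 38 fell and 3 rose (median -0.42, with 5 higher without the DI150 library 1). Top2a, topoisomerase II alpha, was at 1250.2 and 1261 CPM in PBS and 697 and 755 CPM in DI150 (1.73-fold lower, adjusted p = 4.52e-05). Racgap1 and Espl1, of cytokinesis and chromatid separation, fell 2.08-fold and 2.30-fold, and Pola1, a subunit of DNA polymerase alpha, 2.18-fold. Rpa1, of the single-strand binding complex, rose 2.29-fold, from 374 and 332 CPM to 882 and 731 CPM. Of 55 repair genes 29 fell, Xrcc6 (Ku70) by 2.25-fold and Rad54l by 2.19-fold, while Chek2, a checkpoint kinase, rose 1.79-fold. In the p53 list Bax, a pro-death BCL2 family member, rose 1.78-fold and Mdm2, the p53 ubiquitin ligase, 1.81-fold, while Gadd45a fell 4.85-fold.

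Cytosolic chaperone genes fell more often than they rose, and those of the endoplasmic reticulum were divided evenly. Of 31 heat shock and cytosolic chaperone genes 14 fell and 2 rose (4 without the PBS library 2), Hspa4l falling 3.65-fold and Cct5, of the chaperonin ring, 1.93-fold. In the list of endoplasmic reticulum chaperones and the unfolded protein response 9 of 31 rose and 9 fell (median -0.02). These shares, 29.0% each, stand beside 32.7% higher and 36.1% lower over all tested genes. Hspa5, the main chaperone of the endoplasmic reticulum, was not called (939 and 817 CPM and 824 and 899.6 CPM), P4hb, its disulfide isomerase, fell 1.99-fold, and Ero1a, the oxidase of that system, went from 52.0 and 61.5 CPM to 244 and 197 CPM (3.88-fold). Nupr1, a stress-induced nuclear protein, fell 6.71-fold, and Atf4, the main factor of the integrated stress response, rose 1.47-fold. Proteasome genes were 12 higher and 12 lower of 35 (34.3% each, near the 32.7% and 36.1% over all tested genes). Fewer were lower without the DI150 library 1. The 2 proteasome genes with the largest rises, Psmd4 (7.16-fold) and Psmb4 (5.25-fold), lie in the chromosome 3 stretch described further on. Lysosomal Hexa, a hexosaminidase, and Npc1, a cholesterol exporter, rose 4.04-fold and 4.15-fold, while the proteases Ctsc and Ctsl fell 10.2-fold and 4.24-fold.

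Genes of the respiratory chain mostly rose and those of sterol synthesis mostly fell. Of 77 nuclear respiratory chain genes 44 rose and 12 fell (median 0.30, with fewer lower without the DI150 library 1). Of the same 77, whatever their call against PBS, 30 were higher in DI150 than in I80, against 21.9% of all tested genes. Ppargc1a, a coactivator of mitochondrial genes, was at 5.00 and 9.99 CPM in PBS and 56.6 and 69.3 CPM in DI150 (8.40-fold, adjusted p = 3.52e-05), against 30.4 and 33.3 CPM in I80. Atp5pb, an ATP synthase subunit, rose 2.37-fold and Ndufa3, of complex I, 2.04-fold. Of 28 cholesterol genes 23 fell and 3 rose (median -0.74). Fdft1, squalene synthase, was at 86.4 and 98.0 CPM in PBS and 22.2 and 20.2 CPM in DI150 (4.35-fold lower), Msmo1, a sterol oxidase, fell 3.50-fold, Hmgcs1 2.32-fold and the regulator Srebf2 1.75-fold. Soat1, which esterifies cholesterol, was at 26.9 and 29.7 CPM in PBS and 0 in DI150 (at least 219.9-fold lower). Fasn, fatty acid synthase, fell 3.14-fold and Plin2, a coat protein of lipid droplets, 4.12-fold. In sphingolipid metabolism Degs1, the desaturase that completes ceramide, went from 49.7 and 59.9 CPM to 0.0476 and 0 CPM, and Smpd1, acid sphingomyelinase, from 32.8 and 40.7 CPM to 0 reads (at least 286-fold lower), while the ceramide synthase Cers2 rose as given above. Among hypoxia genes Egln3, an oxygen-sensing hydroxylase, went from 2.22 and 3.72 CPM to 113 and 112 CPM (37.9-fold), whereas Epas1, the HIF-2 alpha subunit, fell 8.11-fold, Ndrg1 17.6-fold and Hk2, a hexokinase, 2.74-fold.

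Lineage transcription factors shifted in both directions. The neighbouring homeobox genes Hoxa3, Hoxa4 and Hoxa5, which pattern the body axis, rose 7.08-fold, 8.25-fold and 6.25-fold, Hoxa4 from 5.94 and 5.22 CPM to 43.9 and 48.1 CPM. Hoxc5, in another HOX cluster, fell 64.7-fold. Sox6 went from 5.04 and 7.93 CPM to 99.6 and 97.2 CPM (15.2-fold), Tfap2b rose 7.20-fold and Foxi1 4.88-fold, whereas Sox9, a factor of mammary progenitors, was at 29.1 and 24.3 CPM in PBS and 0.714 and 0.992 CPM in DI150 (31.3-fold lower). Bhlhe41, a repressor of the clock, fell 22.4-fold, and Cry2, another clock repressor, rose 3.36-fold. Kdm6a, an X-linked histone demethylase, fell 2.09-fold, and Hdac7, a histone deacetylase, 4.11-fold.

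Position along the genome was examined next, over 225 windows of 10 Mb with at least 15 tested genes. The window medians had quartiles of -0.31 and 0.24, with 25 windows below -0.5 and 18 above 0.5. By chromosome, the median log2 fold change was highest on chromosome 12 (0.49, with 68.4% of 408 genes called higher) and chromosome 3 (0.38), and lowest on chromosomes 8 (-0.56), X (-0.46), 15 (-0.46) and 14 (-0.41). Against I80 the medians of chromosomes 8, 14 and 15 were 0.10, 0.12 and 0.10, so both treated lines stood below PBS there. The highest windows were 90 to 100 Mb on chromosome 3 (median 1.16, 79 of 105 genes higher), 100 to 110 Mb on chromosome 3 (0.92, 70 of 80) and 50 to 60 Mb on chromosome 6 (0.76). Chromosome 6 contributed Abcg2 and the Hoxa genes. The lowest were 90 to 100 Mb on the X (-1.001, 17 of 19 lower), where Msn, the membrane-cytoskeleton linker moesin, went from 1001 and 939.8 CPM to 272 and 253 CPM (3.69-fold lower), 100 to 110 Mb on chromosome 8 (-0.70, 61 of 74 lower) and 90 to 100 Mb on chromosome 1 (-0.69, 34 of 45 lower), where Ramp1, a partner of the calcitonin-receptor-like receptor, fell 16.4-fold.

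**Figure D3:**
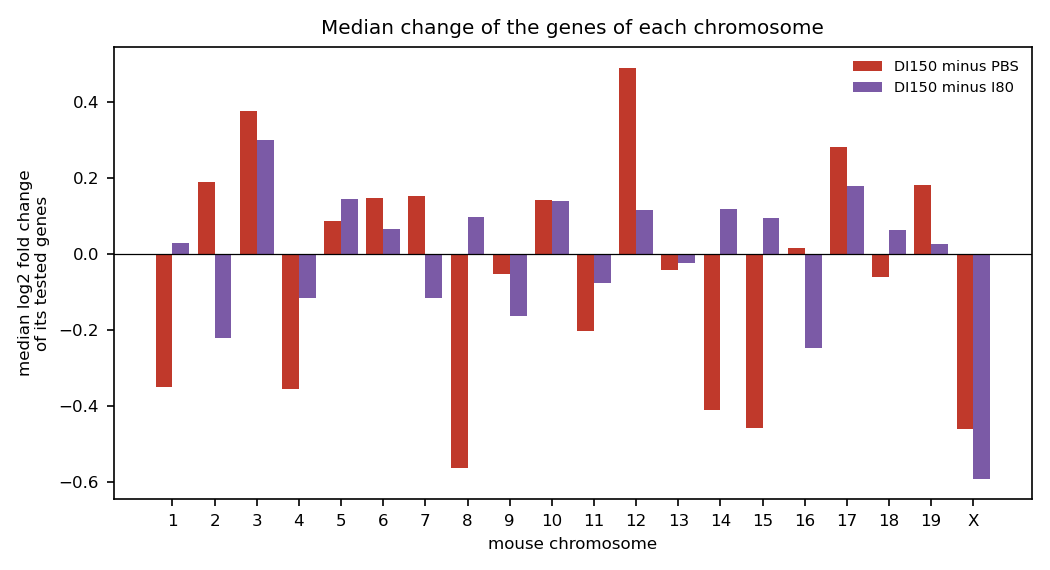
Median log2 fold change of the tested genes of each chromosome for DI150 minus PBS (red bars) and DI150 minus I80 (purple bars). Chromosome 8 is low against PBS at -0.56 and not against I80 at 0.10, and the X is low against both.

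Within the highest window, 35 tested genes in a row were called higher, over 1.29 Mb ending at Mcl1. This stretch was picked out after the window medians had been seen. Its log2 fold changes ran from 0.73 to 3.53 with a median of 2.48. The run was defined by the call, so every fold is upward by construction. None of the 35 genes overlapped between the lines, as for 83.5% of all tested genes. Summed over the stretch, the level was 2514 and 2560 CPM in PBS, 16239 and 15962 CPM in DI150 and 11535 and 11729 CPM in I80. Its genes have varied functions. Arnt, the partner of HIF and of the aryl hydrocarbon receptor, was at 61.3 and 64.4 CPM in PBS and 649.6 and 648 CPM in DI150 (10.3-fold, adjusted p = 2.48e-08), with 407 and 403 CPM in I80. Setdb1, a histone H3K9 methyltransferase, was at 109 and 105 CPM and 687 and 713 CPM (6.52-fold), Pi4kb, a phosphatidylinositol kinase, rose 8.96-fold, and Cdc42se1, a small effector of Cdc42, 10.0-fold. Mcl1, an anti-apoptotic BCL2 relative, at the end of the stretch, rose 1.66-fold. The next tested genes beyond Mcl1 broke the run: Ecm1, an extracellular matrix protein, was at 216 and 376 CPM in PBS and 22.4 and 21.8 CPM in DI150, and Adamtsl4, an ADAMTS-like protein, at 29.8 and 38.4 CPM and 8.33 and 10.8 CPM, and both fell. The median difference between I80 and PBS in the stretch was 1.90 and that between DI150 and I80 was 0.41, with 26 genes higher and 1 lower in DI150 than in I80. Tdrkh, a germ cell protein, was the exception to the shared rise, at 5.04 and 4.88 CPM in DI150 against 0.0752 and 0.0404 CPM in PBS and 0 CPM in both in I80 (chosen after its values were seen).

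**Figure D4:**
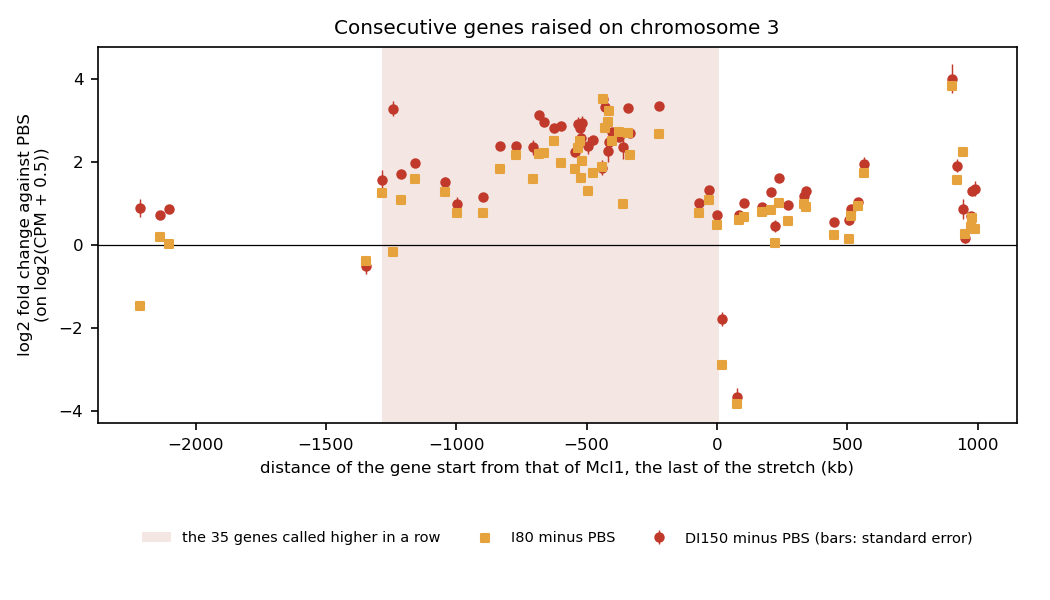
Log2 fold change against PBS of the tested genes on and around the chromosome 3 stretch, by distance of the gene start from that of Mcl1 in kb, for DI150 (circles, with standard errors) and I80 (squares). The 35 shaded genes lie between 0.73 and 3.53 in DI150, while the neighbours Ecm1 and Adamtsl4 lie below 0.

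Other runs of at least 16 consecutive genes with the same call were found, also after the data had been seen. On chromosome 3 a run of 17 higher genes followed from Tars2 to Lix1l (median 1.01) and a run of 16 from Vangl1 to Rsbn1 (median 1.34), which holds Olfml3 and Bcl2l15, a BCL2-like gene that went from 6.20 and 11.8 CPM to 635 and 557 CPM (66.2-fold). Chromosome 10 had 17 higher genes from Lta4h to Eea1 (median 0.82) and chromosome 12 had 16 from Papln to Lin52 (median 0.71). Lower runs were 17 genes from Psmb10 to Utp4 on chromosome 8 (median -0.83) and 21 from Zxda to Taf1 on the X (median -0.77).

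Xist, the noncoding RNA that coats the inactive X chromosome, and most genes of the X were lower in DI150. Xist (chrX:103460373-103483233) was at 884 and 917 CPM in PBS, 583 and 524 CPM in I80 and 21.5 and 24.4 CPM in DI150 (39.3-fold lower than PBS, adjusted p = 2.35e-08, and 24.1-fold lower than I80, adjusted p = 3.12e-07). Whether counting used strand is not given in the sources used here, and reads of the antisense gene Tsix could be among those counted for it. Of 329 tested genes on the X, 62.3% were lower and 9.42% higher, 3830417A13Rik among the latter. The summed level of the chromosome was 23364 and 23157 CPM in PBS, 16359 and 16549 CPM in DI150 and 25374 and 25511 CPM in I80. Only in DI150 was this sum low. Over the whole chromosome the median difference was -0.59 between DI150 and I80 and 0.07 between I80 and PBS. Parts of the X were low in both treated lines. From 90 to 100 Mb the median difference was -0.97 between I80 and PBS and 0.08 between DI150 and I80. In the run from Zxda to Taf1 these were -0.91 and 0.08. The 49 genes listed on the Y chromosome had 0 reads in every library. Jpx and Ftx, noncoding neighbours of Xist, fell 2.36-fold and 1.78-fold.

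DI150 also differed from the line that received the lower dose. Against I80, 2503 genes (21.9%) were higher and 2505 (21.9%) lower by limma at an adjusted p under 0.05. Without any 1 of the 4 libraries of these lines, which are DI150 1, DI150 3, I80 1 and I80 2, there were 1295 to 1561 higher and 1187 to 1662 lower. Genes higher than in both other lines numbered 1384 (12.1%), and genes lower than in both 1350 (11.8%). DI150 enters both comparisons, so their values are given side by side. Aif1l, an actin-binding protein, was at 24.5 and 24.8 CPM in PBS, 28.5 and 25.3 CPM in I80 and 265 and 263 CPM in DI150 (10.7-fold over PBS and 9.83-fold over I80, adjusted p = 8.7e-07 against I80). The PBS and I80 libraries of this gene lay close together and both DI150 libraries apart. Mmp2, a gelatinase, was at 3.31 and 2.83 CPM, 1.87 and 1.69 CPM and 40.7 and 32.4 CPM in the same order (11.9-fold over PBS and 20.5-fold over I80). Sema3d, a secreted semaphorin, was at 1.503 and 1.94 CPM in PBS, 0 and 0.247 CPM in I80 and 25.8 and 26.2 CPM in DI150 (15.1-fold over PBS). Tiam1, an activator of the GTPase Rac, was at 75.1 and 81.9 CPM, 22.4 and 22.1 CPM and 0.619 and 0.878 CPM in that order (29.7-fold lower than I80). Acp5, a lysosomal acid phosphatase, was 43.2-fold lower than PBS and 35.97-fold lower than I80, where it stood at 29.1 and 27.5 CPM.

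Other genes that the treated lines did not share lay within the lists. Slc39a8, an importer of zinc and manganese, was at 13.3 and 10.4 CPM in PBS, 0.156 and 0.124 CPM in I80 and 51.7 and 60.2 CPM in DI150, thus 4.71-fold higher than PBS in DI150 and near 0 in I80. Fst, an activin antagonist, was at 44.3 and 57.3 CPM in PBS, 57.1 and 54.5 CPM in I80 and 6.80 and 7.10 CPM in DI150. Mbp was at 98.8 and 104 CPM, 34.4 and 34.0 CPM and 203 and 205 CPM in that order. Aldh1a7, an aldehyde dehydrogenase close in sequence to Aldh1a1, was at 0.338 and 0.243 CPM in PBS, 2.58 and 1.94 CPM in I80 and 14.8 and 15.6 CPM in DI150, while Aldh1a1 was at most 0.687 CPM in the 6 libraries.

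Among the lists of at least 10 tested genes, the largest shares of members called higher were those of NRF2 targets (78.6%), peroxide-removing enzymes (73.7%) and glutathione S-transferases (66.7%). The largest shares called lower were those of cholesterol genes (82.1%), of basal, adherens junction and epithelial marker genes (9 of 12 in each list) and of mesenchymal genes (73.3%). No list was tested as a set. The lists and their members were chosen with earlier results of these data known, so this ranking is a description only. Each count of list members given above is to be read beside the 32.7% higher and 36.1% lower over all tested genes.

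**Figure D5:**
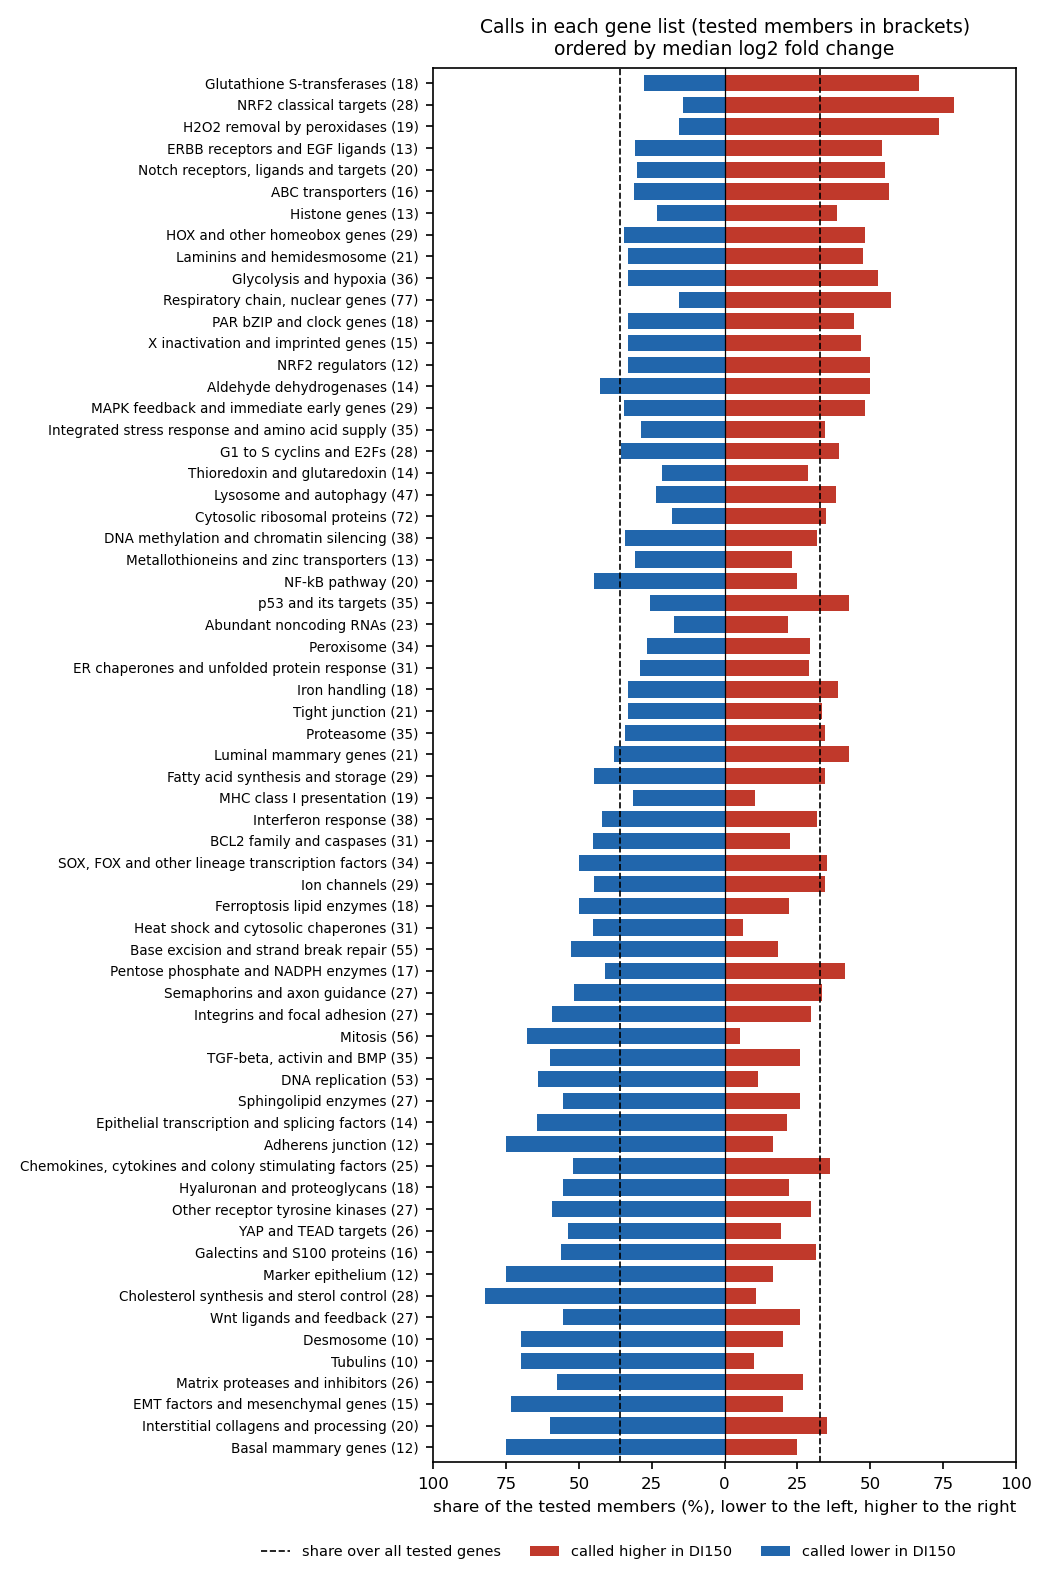
Share of the tested members of each gene list called higher (red, to the right) or lower (blue, to the left) in DI150, ordered by the median log2 fold change, with dashed lines at the shares over all tested genes (32.7% higher and 36.1% lower). Glutathione S-transferases stand at the top with a median of 2.21 and basal mammary genes at the bottom with -3.06.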

How the data were processed

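The libraries are ribosomal-RNA-depleted total RNA made with a stranded kit, per the labels' protocols. The deposited table gives CPM per gene number and library, scaled by the authors to 1000000 per library. Per the submitters' processing notes, STAR and mm10 were used (no version). How reads were counted, with which annotation and strand setting, is not stated there. All 146724 values (100%) were whole multiples of what 1 read is worth, within 1e-06, so whole reads were recovered and depth is known. Gene numbers were matched to RefSeq GRCm38.p6 symbols, 24374 of 24454 (99.67%), and the unmatched rows held 1.21 to 1.52% of the reads.

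Levels were tested as log2(CPM + 0.5) with limma 3.58.1 (R 4.3.3, trended variances), the 3 lines fitted together on 3 residual and 4.52 prior degrees of freedom. P-values were adjusted by Benjamini-Hochberg over 11428 genes and called under 0.05. Fold changes in words are ratios of mean CPM, and log2 fold changes are those of log2(CPM + 0.5), which are too small for low genes. Where both libraries of a line had 0 reads the fold is a lower bound at 3 reads per library, and for 1 to 3 reads a pooled ratio with its exact 95% interval is given. Intervals and floors cover counting error only. The limma script was tested on simulated data.

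Named genes followed rules on size of change, abundance, switching, difference from both other lines, position and gene lists (70 lists). The members and lists were chosen with earlier results of these data known. The second DI150 column is numbered 3 where the labels number samples 1 and 2, and it was mapped to its group only. RefSeq promoters covered 9137 of 11428 tested genes, under the 80% needed, so promoter composition of the changed genes was not compared. Alternatives were pseudocounts, filters, scalings, variance models, replicate blocks, left-out libraries, edgeR 4.0.16 and DESeq2 1.42.0 on the recovered reads.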

Additional observations from a re-analysis of the deposited data

How the results depend on the processing

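Against PBS, the 3733 higher and 4120 lower genes stayed within 1.5 times these counts in all 20 alternatives. They came to 3714 and 4102 at a pseudocount of 0.1, 4020 and 4701 with no filter, 3687 and 4165 with edgeR and 3609 and 3887 with DESeq2. Quantile scaling gave 4152 higher and 3833 lower, so the larger side depends on the scaling, while the median over all genes moved only from -0.03 to 0.03. Leaving out 1 library gave 3021 to 3807 higher and 3400 to 4099 lower. Against I80, the 2503 higher and 2505 lower genes became 1295 to 3008 and 1187 to 2965 when 1 library was left out, and in such a fit the lone library is assumed to vary like the other groups. A replicate block with the DI150 library 3 at a level of its own gave 2917 higher and 3367 lower against PBS and 1361 and 1327 against I80, on fewer residual degrees of freedom, and the libraries share only a number. Deviations from the line means correlated at r = -0.06 for PBS 1 with DI150 1, 0.02 for PBS 1 with I80 1 and 0.21 for DI150 1 with I80 1. Of 730 tested named genes, 629 had the same call throughout, and none changed direction with a call. The 35 genes of the chromosome 3 stretch were all called higher in 19 alternatives, and 30 of them remained when a mean of at least 5 CPM was asked for. Motif shares in other window lengths were not run, since promoters covered too few genes. A gene with under 3 reads in a library cannot be ranked at this depth.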
